A study of Mus musculus with 2 samples.

Results

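The genes described here are 51 mouse genes of Hedgehog signalling and of the primary cilium, 21 of the first kind and 30 of the second. They were chosen by gene symbol from a list of ligands, receptors, transducers, GLI transcription factors, intraflagellar transport subunits, BBSome subunits and proteins of the cilium base. All 51 were found among 43346 gene rows, of which 21474 were annotated as protein coding. The study has 1 group, healthy midbrain of the strain B6NCrl at embryonic day 10.5, and no treated, mutant or control group. Male and female embryos were pooled for its 2 libraries, with 69 of them in replicate 1 and 51 in replicate 2, so that differences between single embryos or between the sexes are not visible. Each library started from 10 ng of long RNA. The labels name the assay as sequencing of total RNA, but a manual of a kit that primes on poly(A) tails is linked as well, so it is not known which kinds of RNA were captured or whether the strand was recorded.

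Hedgehog proteins are secreted morphogens. Sonic hedgehog, made by the notochord and the floor plate under the ventral neural tube, patterns the ventral midbrain. In vertebrates the signal passes through the primary cilium, a single non-motile projection of the cell. The receptor Patched leaves the cilium when it binds ligand, Smoothened enters, and the GLI factors, which travel through the cilium with the intraflagellar transport (IFT) trains, shift from repressor to activator forms. The BBSome carries membrane proteins out of the cilium, and the transition zone at its base controls what enters.

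Many ciliary genes carry an X-box, the inverted repeat bound by the RFX transcription factors, close to their start. This repeat was searched in the 300 bases around each gene's start in RefSeq (250 before and 50 after it, GRCm38.p6) as GTTNCC, 1 to 3 bases and GGNAAC, with at most 1 mismatch in the 10 fixed letters. The motif reads the same on both strands. Windows were present for 44 members, and Shh, Gli1, Boc, Ift80, Ift81, Ift122 and Tmem67 were not matched to one. The 5 members with a match to all fixed letters are shown because their sequences carry this comparison, with the match in capitals and up to 8 flanking bases on each side.
Ift57: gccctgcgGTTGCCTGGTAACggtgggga
Bbs7: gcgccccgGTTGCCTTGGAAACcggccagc
Mks1: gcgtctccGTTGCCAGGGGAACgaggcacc
Tctn3: tcccagcgGTTGCCAGGTAACgggaacca
Tctn1: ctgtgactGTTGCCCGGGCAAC
The stretch at Ift57 is chr16:49699226-49699254 on the plus strand, that at Bbs7 is chr3:36613489-36613518 on the minus strand, and that at Mks1 is chr11:87853183-87853212 on the plus strand. The stretch at Tctn3 is chr19:40612351-40612379 on the minus strand. That at Tctn1 is chr5:122264411-122264432 on the minus strand and ends with the window. Counted from the RefSeq start, the first base of the match was at -60 in Ift57, -121 in Bbs7, -24 in Mks1, -140 in Tctn3 and 36 in Tctn1.

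An X-box match with at most 1 mismatch was found in 11 of 26 cilium members with a window (42.3%) and in 0 of 18 Hedgehog members. Over detected protein-coding genes it was found in 647 of 9805 (6.60%), and over all windows of the table in 4.83%. Beside the 5 genes shown, the cilium members with a match were Ift52, Cc2d2a, Tctn2, Bbs4, B9d1 and Bbs1, and Ift57 had a second one. The 1-mismatch stretch of Ift52, a core subunit of the transport train, and that of Tctn2, a tectonic protein of the transition zone, are shown as examples.
Ift52: atacagtcTTTACCGGGAAACgggccagc
Tctn2: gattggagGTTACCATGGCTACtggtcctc
These lie at chr2:163017338-163017366 and chr5:124598679-124598708, both on the plus strand. By structure, a match was found in 2 IFT-B genes, 3 BBSome genes and 6 transition zone genes. Other cilium genes that are not members gave 16 of 51 (31.4%), and genes of motile cilia, which beat and have dynein arms, gave 9 of 19 (47.4%). With no mismatch allowed, the shares were 19.2% of cilium members, 1.00% of detected protein-coding genes and 0.776% of all windows. At that setting the other cilium genes gave 5 of 51 (9.80%) and the motile cilium genes 0 of 19, so the motile genes lay above the cilium members with 1 mismatch and below them with none. A match describes these letters and is not evidence of a bound site.

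**Figure D1:**
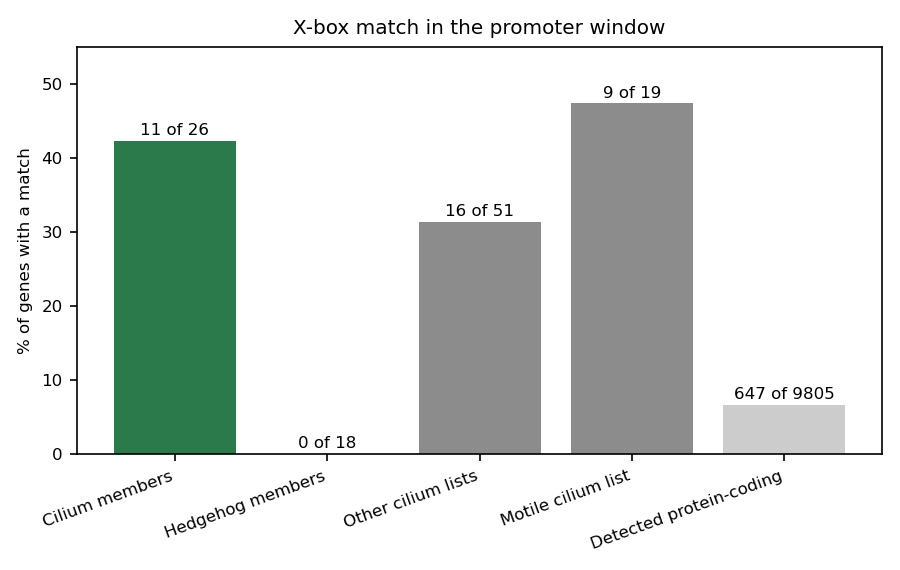
Share of genes (%) whose 300-base RefSeq promoter window holds an X-box match with at most 1 mismatch, with the counts above each bar. Cilium members stand at 42.3%, Hedgehog members at 0 of 18 and detected protein-coding genes at 6.60%.

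The GLI motif GACCACCCA was searched in the same windows on both strands (reverse complement TGGGTGGTC) with at most 1 mismatch in 9 letters. It was found in 0 of 44 members, so no match overlapped an X-box, in 8.50% of detected protein-coding genes and in 6.74% of all windows. The windows of Ptch1 and Hhip, genes that Hedgehog signalling is known to induce, were among those without these letters, which says nothing of GLI binding elsewhere. Median GC content of the windows was 59.2% for cilium members, 62.2% for Hedgehog members and 61.0% for detected protein-coding genes. Cilium members with an X-box match had a median level of 15.8 TPM (a length-corrected share of transcripts, n = 11 genes) and those without one 14.5 TPM (n = 15 genes).

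Levels are given in TPM, in which counts are divided by transcript length and each library is scaled to a fixed total. This lets genes of different length be set side by side. Since the capture of RNA is not known, a remaining effect of length on TPM was not tested. A gene counts as detected at 1 TPM or more in both libraries. The libraries held 45531621 and 50477634 expected counts on genes in replicates 1 and 2, and spike-in or other RNA took 7.89% and 7.40% of the TPM. Otx2, a homeobox gene of forebrain and midbrain, was at 138.0 and 122.7 TPM and the midbrain gene En1 at 4.74 and 4.46 TPM, while the midbrain and isthmus genes En2 (0.92 and 0.71 TPM) and Pax2 (0.50 and 0.93 TPM) were under 1 TPM. The midbrain genes Lmx1b (2.30 and 2.63 TPM) and Pax7 (1.47 and 1.12 TPM) were detected. So were Six3 (6.70 and 3.41 TPM) and Emx2 (7.83 and 7.43 TPM) of the forebrain and Gbx2 of the hindbrain (3.03 and 3.95 TPM). Of the other hindbrain genes, Hoxa2 was at 0.24 and 1.67 TPM, and Hoxb1, Hoxb2 and Egr2 were under 1 TPM in both libraries. The RNA is of whole tissue, where fewer cells of a type and less RNA per cell cannot be told apart.

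Of the 51 members, 49 were detected, beside 58.1% of protein-coding genes. In both libraries 32 members reached 10 TPM. So did 8199 protein-coding genes, out of 12477 detected and 21474 in all. The median over all 51 members was 14.7 TPM, with medians of 15.4 and 13.5 TPM in the 2 libraries. The median was 3.735 TPM over all protein-coding genes and 20.7 TPM over the detected ones. The cilium members were all detected, at a median of 15.7 TPM and from 2.62 to 136.5 TPM. Of the Hedgehog members 19 of 21 were detected, at a median of 8.50 TPM over all 21 and up to 43.2 TPM. Ihh and Dhh were the undetected ones. The Hedgehog members spread from Ihh at 0.12 TPM to Sufu at 43.2 TPM in their means. Of these members 9 reached 10 TPM in both libraries, against 23 of the 30 cilium members.

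**Figure D2:**
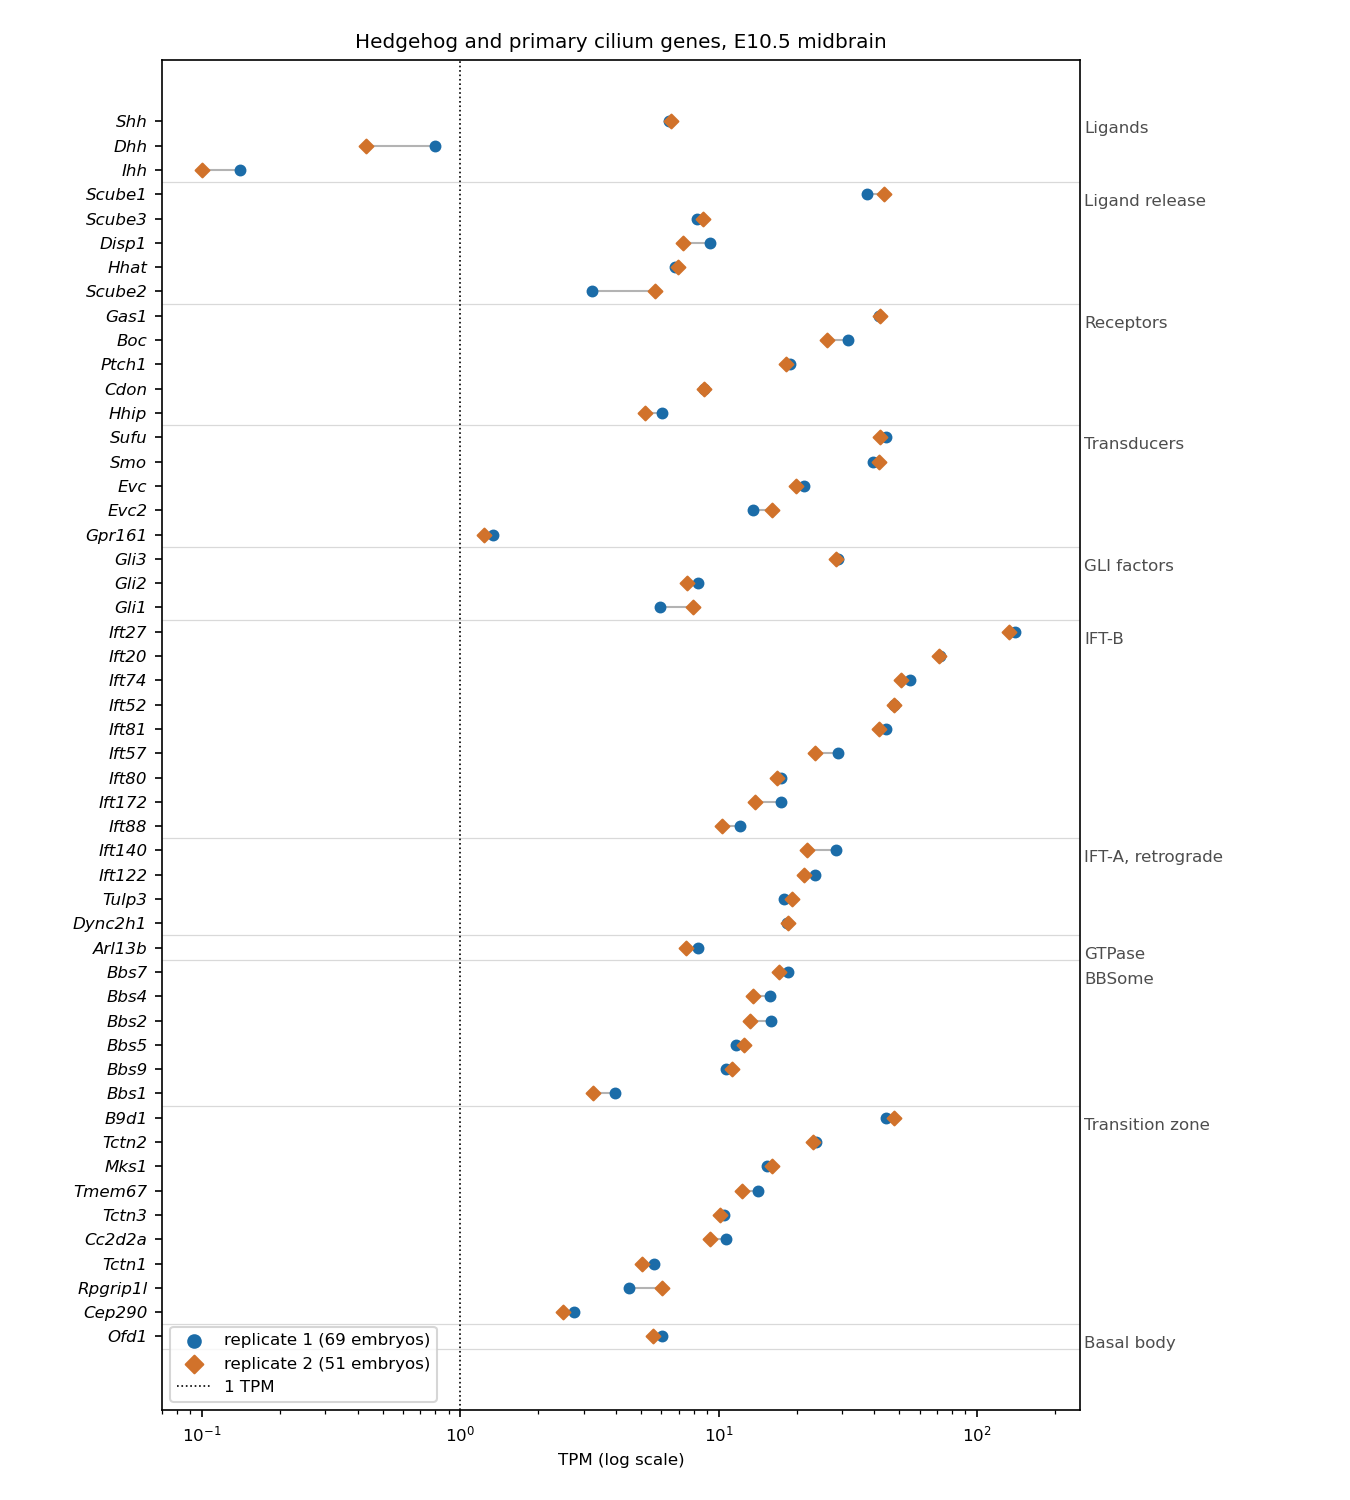
TPM (log scale) of the 51 members in replicate 1 (circles) and replicate 2 (diamonds), ordered by mean within each role, with a dotted line at 1 TPM. Ihh and Dhh lie left of the line, Ift27 is highest at 140.3 and 132.8 TPM, and Scube2 has the widest gap among the detected members.

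Of the 3 ligand genes, Shh was the only one detected. Shh (chromosome 5, 28456815 to 28467256, minus strand, GRCm38) had 6.40 TPM in replicate 1 and 6.52 TPM in replicate 2, from 487 and 568 expected counts. The deposited credible intervals of these values, 5.74 to 6.86 and 5.90 to 6.97 TPM, overlapped, so the libraries did not differ at this precision. Dhh, the ligand known from testis and peripheral nerve sheaths, was at 0.80 and 0.43 TPM from 53 and 33 counts. Its exons share 546 bases with Rhebl1 on the same strand (15.5 and 18.3 TPM), so counts could be exchanged between these genes. Ihh, the ligand of growing cartilage and gut, had 10 and 8 counts, or 0.14 and 0.10 TPM. Shh stood 8.00 and 15.2 times above Dhh in the 2 libraries.

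Shh is made by floor plate and notochord cells, and markers of both were read beside it. All 7 floor plate genes were detected, with summed levels of 123.9 and 120.6 TPM. They were led by Spon1 (65.1 and 63.9 TPM), an extracellular matrix protein, and Ntn1 (23.1 and 21.7 TPM), an axon guidance cue. Spon1 thus made up much of the sum, and the list medians were 8.82 and 10.3 TPM in the 2 libraries. Foxa1 was the lowest floor plate gene at 2.68 and 3.07 TPM. Of the notochord genes 2 of 4 were detected and the summed levels were 4.16 and 4.30 TPM. The detected ones were Nog (1.79 and 2.78 TPM) and Chrd (1.49 and 1.03 TPM). Noto was at 0 in both libraries, and T, the defining notochord factor, was at 0.88 and 0.49 TPM.

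The genes that modify and release the ligand were all detected. Scube1 led them at 37.5 and 43.6 TPM. It encodes a secreted protein of the family that takes lipid-modified Hedgehog off the producing cell. Scube3 followed at 8.27 and 8.72 TPM and Disp1, the transporter that hands the ligand out of the membrane, at 9.24 and 7.28 TPM. Their ranges overlapped, so Scube3 and Disp1 could not be ordered. Hhat, the acyltransferase that adds palmitate to the ligand, was at 6.76 and 6.93 TPM. Scube2 was lowest at 3.22 and 5.65 TPM, and in relative terms its libraries lay further apart than those of any other detected member. Scube1 was 11.7 and 7.72 times as high as Scube2 in replicates 1 and 2, and 4.54 and 5 times as high as Scube3.

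Among the receptors the co-receptors Gas1 and Boc were highest, and the co-receptor Cdon was below Ptch1. Gas1 (chromosome 13, 60174405 to 60177365, minus strand), a membrane-anchored ligand-binding protein, was at 41.6 and 42.1 TPM, 4.76 ± 0.042 times the level of Cdon (SD, n = 2). Boc, a relative of Cdon in the immunoglobulin superfamily, was at 31.6 and 26.3 TPM, and Cdon was at 8.79 TPM in both. These 3 co-receptors act together with the main receptor, and their levels did not overlap between any 2 of them. Ptch1 (chromosome 13, 63508328 to 63573598, minus strand), which holds Smoothened inactive in the absence of ligand, was at 18.8 and 18.3 TPM, 2.87 ± 0.10 times the level of Shh. Hhip, a decoy that binds and removes ligand, was lowest at 6.01 and 5.20 TPM.

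The transducers spanned from 1.29 to 43.2 TPM in their means. Sufu (chromosome 19, 46396896 to 46488804, plus strand), which binds and restrains the GLI proteins, was at 44.5 and 42.0 TPM. Smo (chromosome 6, 29735503 to 29761365, plus strand), the membrane protein that relays the signal, was at 39.6 and 41.8 TPM, 2.20 ± 0.13 times the level of Ptch1. Each of these 2 genes was above the median of detected protein-coding genes in both libraries, and their ranges did not overlap. Evc (21.4 and 19.9 TPM) and Evc2 (13.6 and 16.1 TPM) encode partner proteins that promote Smoothened signalling near the cilium base. They lie head to head on chromosome 5, Evc from 37289098 to 37336894 on the minus strand and Evc2 from 37338499 to 37425055 on the plus strand. Evc was higher in replicate 1 and Evc2 in replicate 2 by TPM, and their ratio was 1.40 ± 0.24. Gpr161, a ciliary receptor that raises cAMP and keeps GLI in its repressor form, was the lowest detected member at 1.34 and 1.23 TPM (267 and 279 counts).

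Of the GLI factors, Gli3 was highest. Gli3 (chromosome 13, 15463235 to 15730026, plus strand), the main source of the GLI repressor, was at 29.0 and 28.4 TPM. Gli2, the main activator, was at 8.32 and 7.54 TPM. Gli1, an activator that is itself induced by the pathway, was at 5.92 and 7.97 TPM. Gli3 stood 3.63 ± 0.20 times above Gli2 and 4.23 ± 0.95 times above Gli1 (SD, n = 2). The ranges of Gli2 and Gli1 overlapped, and which of them was higher differed between the libraries. Sufu was at 1.51 ± 0.038 times the level of Gli3. These are RNA levels and do not separate the repressor form of Gli3 protein from its full-length form.

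Other genes of the pathway were read from a list of 22, of which 21 were matched and 19 detected, at a median of 19.4 TPM. The highest were genes that also act outside this pathway. Prkar1a, a regulatory subunit of protein kinase A, was at 304.9 and 262.5 TPM, Csnk1a1, a casein kinase that phosphorylates GLI, at 230.3 and 223.0 TPM, and Gpc3, a cell surface proteoglycan, at 180.1 and 207.9 TPM. Hhatl, a relative of Hhat, was at 0 in both. Disp2, a relative of Disp1, was at 6.30 and 2.62 TPM and was the 1 gene of this list that passed 2-fold between the libraries (log2 ratio 1.11 for replicate 1 over replicate 2).

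A list of 16 genes known to respond to Hedgehog signalling in some tissues had 15 detected, at a median of 9.10 TPM. Its highest members were the cyclins Ccnd2 (341.6 and 322.1 TPM) and Ccnd1 (213.9 and 198.9 TPM) and the growth regulator Mycn (100.8 and 120.0 TPM), which other pathways also induce. The lowest was Foxf1, a mesenchymal factor, at 0.15 and 0.91 TPM. Of these genes, none whose mean reached 1 TPM passed 2-fold or 1.5-fold between the libraries. Without a sample of altered signalling, these levels do not measure pathway activity.

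The IFT-B genes, which build the train that moves to the tip, were the highest role group, with a median of 43.0 TPM. Ift27 (chromosome 15, 78159463 to 78174107, minus strand), a small GTPase of the train, was the highest of the 51 members at 140.3 and 132.8 TPM, above 90.3% of detected protein-coding genes. Ift20, which also works at the Golgi, was at 71.5 and 70.9 TPM. Ift74 (55.1 and 50.6 TPM) and Ift81 (44.3 and 41.6 TPM), the pair that binds tubulin cargo, lay on either side of Ift52 (47.6 and 47.5 TPM). Ift57 followed at 29.0 and 23.6 TPM. The lowest IFT-B genes were Ift80 (17.5 and 16.8 TPM), Ift172 (17.4 and 13.8 TPM) and Ift88 (12.1 and 10.3 TPM). Ift172 and Ift88 are genes whose mouse mutants are known to lose Hedgehog responses.

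Subunits of the same train therefore differed in TPM. Ift27 was 12.3 ± 0.95 times as high as Ift88 and 8.85 ± 1.1 times as high as Ift172 (SD, n = 2). Only Ift80 and Ift172 had overlapping ranges among neighbours in the IFT-B order. Across the 30 cilium members the level fell with gene length, with Spearman's rho of -0.57 in replicate 1 and -0.55 in replicate 2. The 12477 detected protein-coding genes had -0.30 and -0.31, and the 19 detected Hedgehog members 0.06 and 0.08. These correlations are across genes of 1 library, and genes are not independent replicates. Ift27 has a length of 1012 nucleotides and Ift172 one of 5407. Whether length itself affected ratios between short and long genes was not tested.

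The genes of the returning train lay close together. Ift140 (28.5 and 22 TPM) and Ift122 (23.6 and 21.4 TPM) are IFT-A subunits, and their ranges overlapped. Tulp3, the adaptor that brings membrane receptors such as Gpr161 into the cilium, was at 17.9 and 19.1 TPM. Dync2h1, the heavy chain of the motor that drives the return, was at 18.4 and 18.6 TPM, within the range of Tulp3. Arl13b, a ciliary membrane GTPase, was lower at 8.28 and 7.49 TPM.

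The 6 BBSome members had a median of 13.3 TPM. Bbs7 was highest at 18.5 and 17.2 TPM. Bbs4 (15.8 and 13.5 TPM) and Bbs2 (15.9 and 13.2 TPM) had overlapping ranges, followed by Bbs5 (11.7 and 12.5 TPM) and Bbs9 (10.6 and 11.2 TPM). Bbs1 stood apart at 3.95 and 3.26 TPM, and Bbs7 was 4.97 ± 0.41 times as high (SD, n = 2). Its protein is the subunit that binds the GTPase Arl6, and Arl6 itself was at 41.5 and 44.0 TPM.

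The 9 transition zone members had a median of 10.3 TPM and ran from 2.62 to 46.1 TPM in their means. B9d1, a B9-domain protein, was highest at 44.5 and 47.7 TPM. Tctn2 was at 23.9 and 23.2 TPM, Mks1 at 15.4 and 16.1 TPM, and Tmem67, a membrane receptor of the zone, at 14.2 and 12.3 TPM. Tctn3 (10.5 and 10.1 TPM) and Cc2d2a (10.7 and 9.27 TPM) overlapped, as did Tctn1 (5.63 and 5.05 TPM) and Rpgrip1l (4.49 and 6.02 TPM). Cep290, the long protein that links membrane and microtubules there, was lowest at 2.75 and 2.49 TPM. B9d1 was 17.7 ± 2.1 times as high as Cep290, and within the tectonic family Tctn2 was 4.42 ± 0.26 times as high as Tctn1. Ofd1, a protein of the basal body, was at 6.03 and 5.57 TPM.

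The related cilium lists were detected almost throughout. Of 20 other transport genes 18 were detected (median 16.9 TPM), led by Ift46 (120.5 and 109.6 TPM), the kinesin subunit Kif3a (76.6 and 63.2 TPM) and Ift22 (71.7 and 65.6 TPM), while Ttc30a2 was lowest at 0.49 and 0.34 TPM. The 7 other BBSome-related genes all passed 1 TPM (median 33.4 TPM), led by Arl6, Lztfl1 (36.3 and 33.3 TPM) and Ttc8 (36.2 and 33.0 TPM), with the chaperonin-like Bbs10 lowest at 6.44 and 5.77 TPM. The 29 other genes of the gate and basal body all did so as well, and their median was 25.1 TPM. Their highest were Arl3 (174.8 and 183.4 TPM), a GTPase that unloads lipid-modified cargo, Pde6d (66.2 and 67.1 TPM), which carries it, and Iqcb1 (57.6 and 58.2 TPM).

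Genes of motile cilia were at a lower level. Only 10 of 25 passed 1 TPM in both libraries, and the median of the list was 0.38 TPM. Foxj1, the factor that drives the motile programme, was at 6.01 and 7.17 TPM and Hydin, a protein of the central pair, at 0.06 and 0.02 TPM. The highest were Ccdc40 (27.6 and 23.8 TPM) and Rsph9 (12.03 and 9.91 TPM). Of the RFX factors, which bind the X-box, 6 of 7 were detected. Rfx4 was at 58.7 and 52.5 TPM, Rfx3 at 24.3 and 21.3 TPM and Rfx7 at 13.0 and 12.6 TPM, and Rfx6 was at 0 in both.

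**Figure D3:**
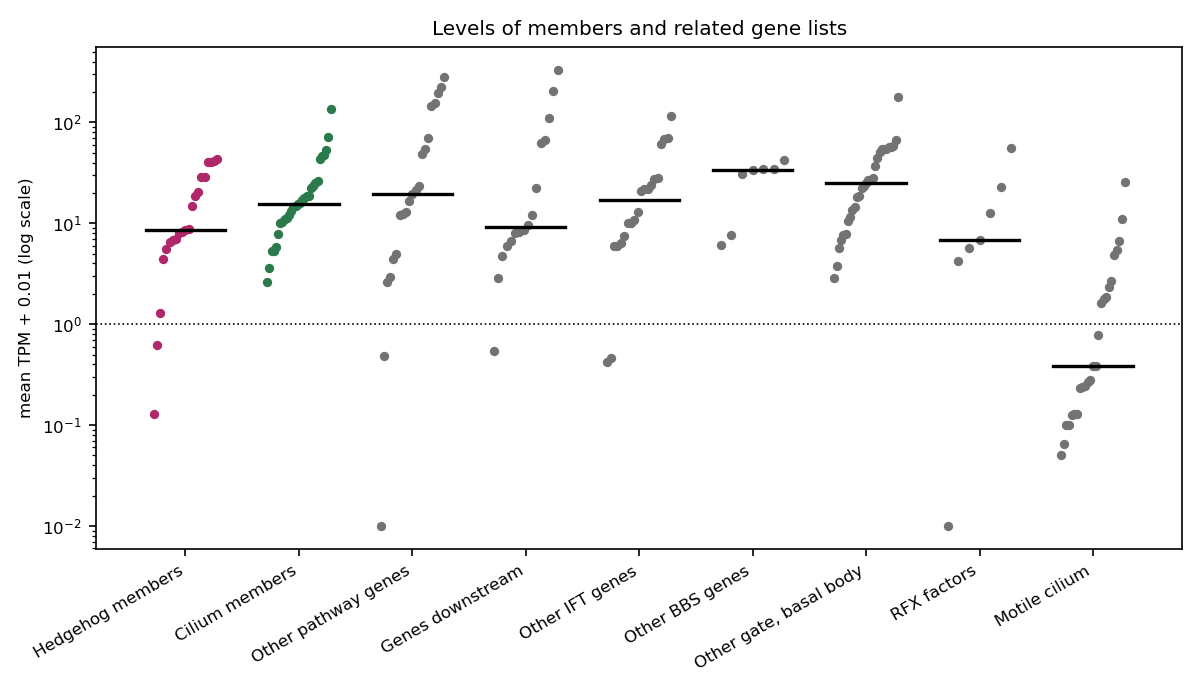
Mean TPM of the 2 libraries plus 0.01 (log scale) for each gene of the Hedgehog members, the cilium members and 7 related lists, with a bar at each list's median and a dotted line at 1 TPM. The cilium members have a median of 15.7 TPM and the motile cilium genes one of 0.38 TPM.

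The 2 libraries were compared as log2 ratios of replicate 1 over replicate 2, from expected counts scaled by edgeR's TMM factors, with 1 library on each side and so no test. Of the 49 members whose mean reached 1 TPM, 0 passed 2-fold. Over all 14768 such genes, 2.04% were at least 2-fold higher in replicate 1 and 1.18% in replicate 2. At 1.5-fold, 0 members were higher in replicate 1 (6.54% of all genes) and 1 member in replicate 2 (3.09% of all genes). That 1 member was Scube2, with 327 counts in replicate 1 and 658 in replicate 2, a log2 ratio of -0.89 (exact 95% interval -1.09 to -0.70, counting error only). The deposited credible intervals of its TPM, 2.94 to 3.71 and 5.27 to 6.19, did not overlap.

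Gli1 was next, with 620 and 955 counts and a log2 ratio of -0.51 (-0.66 to -0.36). Its credible intervals, 5.37 to 6.28 and 7.35 to 8.34 TPM, were apart as well. Evc2 (-0.34), Bbs5 (-0.32) and Scube1 (-0.26) also lay on the side of replicate 2. On the other side the largest ratios were those of Bbs2 (0.29), Ift172 (0.26) and Tctn1 (0.23), all within 1.5-fold. For 27 of the 49 members the counting interval held 0, for 10 it lay above and for 12 below. The same count was not made over all genes, so it shows nothing particular to the members. The coefficient of variation of TPM had a median of 5.61% over the members and 7.35% over detected protein-coding genes.

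Of all 14768 genes compared, 7232 were higher in replicate 1 and 7536 in replicate 2. The median log2 ratio was 0.02 over the 49 members and -0.01 over all genes. For the 30 cilium members it was 0.06, with 23 genes higher in replicate 1 and 7 in replicate 2. For the 19 Hedgehog members it was -0.10, with 5 and 14 genes, but with the deposited TPM in place of scaled counts the median was 0 and 9 genes lay on each side. Under that scaling the cilium members had a median of 0.11, with 23 against 7 genes, beside a median of 0.07 over all genes. The related cilium lists did not all lean this way by scaled counts. Of the other transport genes 12 were higher in replicate 1 and 6 in replicate 2. The other BBSome-related genes gave 4 and 3, and the other gate and basal body genes 11 and 18. Markers of cell types moved too. All 7 neuron genes were higher in replicate 1 (summed levels 1138 and 725 TPM, median log2 ratio 0.58), and Dcx, a microtubule protein of young neurons, passed 2-fold at 44.5 and 19.6 TPM. All 8 progenitor genes were also higher in replicate 1 (2727 and 2235 TPM, median 0.13). With DESeq2 size factors in place of TMM factors, 7 of them were higher in replicate 1 and 1 in replicate 2.

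Other marker lists differed in both directions. The 9 head mesenchyme genes summed to 817 and 572 TPM, with 5 genes higher in replicate 1 and 4 in replicate 2 (median log2 ratio 0.29), and much of that sum was the collagen genes Col3a1 (416.4 and 316.7 TPM), Col1a1 (149.3 and 72.6 TPM) and Col1a2 (118.7 and 72.5 TPM). The 5 erythroid genes summed to 11324 and 13255 TPM, all 5 higher in replicate 2, and the 4 macrophage genes to 53.7 and 37.8 TPM, with 3 higher in replicate 1. The 4 surface epithelium genes summed to 39.5 and 52.2 TPM, all 4 higher in replicate 2 by scaled counts, with Krt18 at 9.92 and 18.4 TPM. The 6 endothelial genes summed to 141.2 and 151.1 TPM, with 3 on each side. Of 4 Schwann and neural crest genes, Sox10 passed 2-fold (0.46 and 2.15 TPM). Their part in the differences of Scube2, Gli1 and the other members was not tested.

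**Figure D4:**
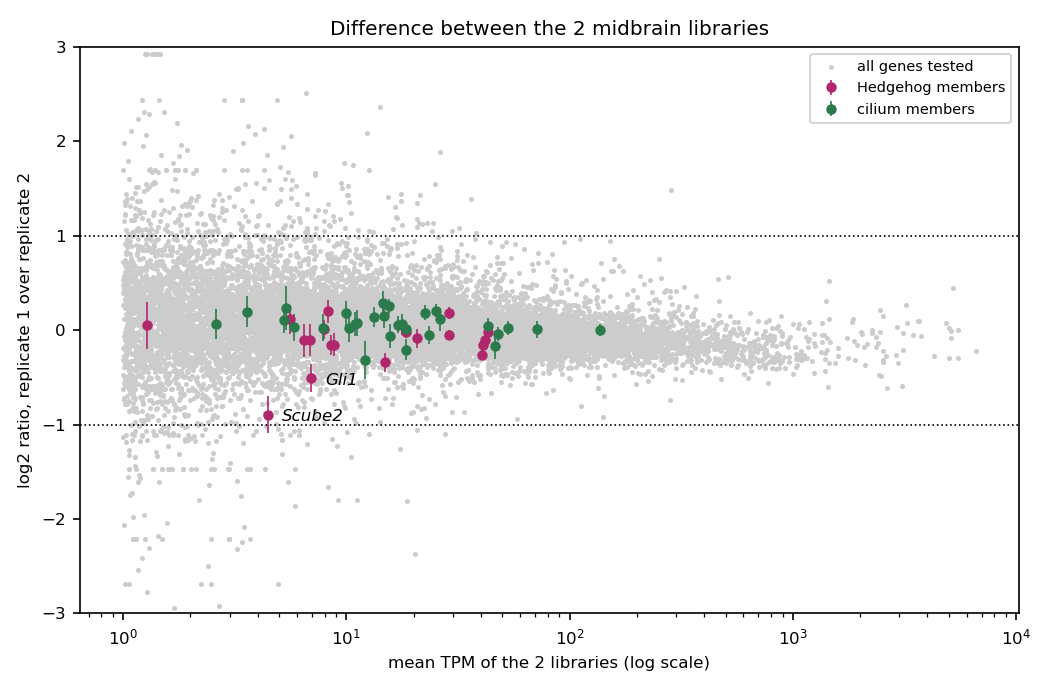
Log2 ratio of replicate 1 over replicate 2 against mean TPM (log scale) for all 14768 genes whose mean reached 1 TPM (grey, 34 of them outside the axis), with Hedgehog and cilium members in colour, their exact 95% counting intervals as bars and dotted lines at 2-fold. No member passes 2-fold, and Scube2 at -0.89 and Gli1 at -0.51 lie lowest among the members.

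The transcript tables list 236 transcripts of the members. Of the 51 genes 11 have 1 transcript and 40 have several. The leading transcript was annotated as protein coding in 48, and it was the same in both libraries in 50. The exception was Scube1. Scube1-201 took 24.8% of its TPM in replicate 1 and 42.6% in replicate 2, and Scube1-203 took 39.5% and 23.6%. For 26 members the leading transcript held at least 80% of the gene in both libraries. These are the 11 genes with 1 transcript and 15 of the 40 with several.

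The 3 members whose leading transcript was not annotated as coding were Tctn2, Boc and Cc2d2a. Tctn2-207 took 81.9% and 83.6% of Tctn2 and is typed as a processed transcript in GENCODE M21, as is the whole gene, so Tctn2 is not among the protein-coding background genes. The leading transcripts of Boc (99.1% and 97.9%) and Cc2d2a (46.4% and 38.9%) come from the older annotation of the files and were not matched in M21, so their type is not known here. Over all members the median share of protein-coding transcripts was 93.8% and 92.4%.

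Several members split their RNA among forms, which in some of them differ in annotated coding potential. Ptch1-202 held 77.8% and 81.2% of Ptch1, and Ptch1-204, annotated as a target of nonsense-mediated decay, held 11.5% and 10.6%. Ift81-201 held 44.6% and 41.6%, beside 26.0% and 34.0% for a transcript with a retained intron. Retained-intron forms made up 30.6% and 41.1% of Tctn1, 33.3% and 40.2% of Mks1 and 29.6% and 31.9% of Evc. Gli3-201 held 67.3% and 67.7% of Gli3, and Gli2-201 held 92.4% and 96.6% of Gli2. For Dync2h1 the leading form was Dync2h1-202 of 2892 nucleotides (59.4% and 59.6%), while the form of 14264 nucleotides took 23.6% and 16.4%. Both of these Dync2h1 forms are annotated as protein coding, as are Gli3-201 and Gli2-201.

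For Rpgrip1l, counts and TPM pointed in opposite directions. It had 877 and 883 counts, a log2 ratio of 0.10 for replicate 1 over replicate 2, but its TPM was lower in replicate 1 (4.49 and 6.02 TPM). Rpgrip1l-202, of only 404 nucleotides, took 2.96% of the gene's TPM in replicate 1 and 37.7% in replicate 2, and Rpgrip1l-201, of 7009 nucleotides, took 95.5% and 60.8%. The mean length used for the gene was 6759 nucleotides in replicate 1 and 4465 in replicate 2. Ift80 was also split differently, with 86.8% and 59.6% for Ift80-202 and 0.08% and 21.8% for Ift80-201, while its level was 17.5 and 16.8 TPM.

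**Figure D5:**
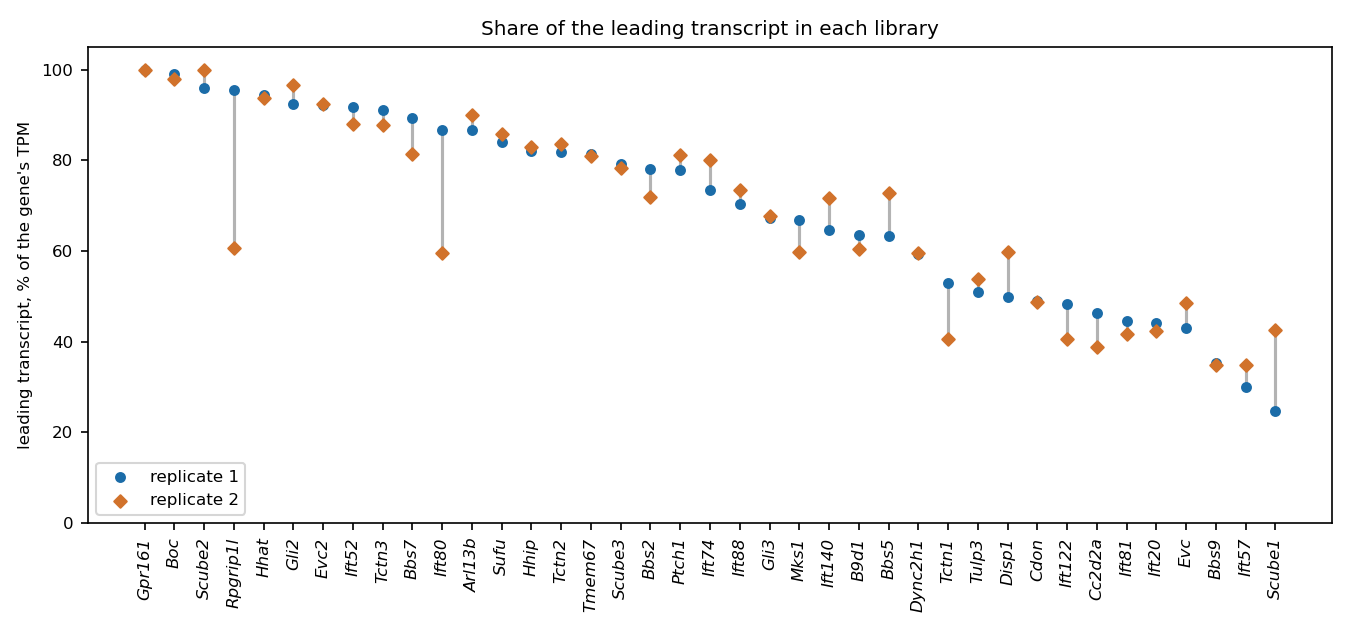
Share of the gene's TPM (%) held by the leading transcript in replicate 1 (circles) and replicate 2 (diamonds) for the detected members with several transcripts. Rpgrip1l and Ift80 show the widest gaps, from 95.5% to 60.8% and from 86.8% to 59.6%.

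Exons of 14 members overlap those of another gene, and without known strand the reads of opposite genes cannot be told apart. The longest overlap was that of Tctn1 with Hvcn1, 1574 bases on the opposite strand, where Hvcn1 (15.0 and 15.2 TPM) was above Tctn1. Cep290 overlaps 4930430F08Rik by 881 bases (7.24 and 8.23 TPM), and that gene was also the higher one. Ofd1 overlaps Trappc2 by 131 bases (36.1 and 28.0 TPM), and Bbs4 overlaps Adpgk by 194 bases (31.4 and 31.1 TPM). Tmem67 overlaps Rbm12b2 by 289 bases (13.6 and 11.9 TPM), and Shh overlaps Gm26894 by 361 bases (1.34 and 1.00 TPM). The levels of Tctn1 and Cep290, the lowest transition zone genes beside Rpgrip1l, are given with this limit.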

How the data were processed

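RNA of pooled midbrain was sequenced in 2 libraries of 1 group, grouped by the labels, which call them biological replicates. Both libraries have gene and transcript tables on mm10 with GENCODE M4, per the file headers. The aligner is not given in the sources used here, nor is the quantifier. Reads that match several transcripts are divided among them in the deposited expected counts, which need not be whole. In the deposited TPM these are divided by effective length and scaled to a fixed total per library, spike-ins included. The deposited FPKM values served as an alternative. The deposited credible-interval bounds are a signal in TPM, and the deposited isoform percent is a transcript's share of its gene.

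Names, types and coordinates came from GENCODE M21 (GRCm38) by identifier: 42462 gene rows matched and 884 did not. Ratios used expected counts rounded to whole numbers, edgeR 4.0.16 TMM factors and 0.5 added; intervals are Clopper-Pearson and cover counting error only. The script was tested on simulated data. Promoter windows are RefSeq's. Python 3.11.15 and R 4.3.3 were used. Members, lists and regional genes were chosen with earlier results of these data known. The text names all 51 members and, of each other list, up to 3 of the highest genes, the lowest and those past 2-fold. Some list genes are not reported here. Alternatives covered the TPM minimum, the scaling (DESeq2 1.42.0 size factors among them), low-value filters, each library alone and motif stringency. No test across conditions was possible with 1 group. The symbol Talpid3 was not matched.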

Additional observations from a re-analysis of the deposited data

How the results depend on the processing

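With 2 pooled libraries, an SD rests on 2 values and no difference between them was tested. The count of detected members was 49 at 0.5 and 1 TPM, 48 at 2 TPM and 44 at 5 TPM, and 49 from either library alone, from posterior mean TPM, from rescaled FPKM and from TPM over nuclear protein-coding genes. The median level was 14.7 TPM, 13.5 to 15.4 TPM with 1 library left out, and 17.8 TPM when TPM was scaled over nuclear protein-coding genes. That scaling moved 48 of 51 single levels by more than their SD, none by 1.5 times. No member passed 2-fold under any scaling, pseudocount or filter run. At 1.5-fold the count was 1, with Scube2 between 1.73 and 1.88 times higher in replicate 2. With a filter of 5 TPM Scube2 was not among the genes compared and the count was 0, and without a filter Dhh was added. X-box matches in cilium members fell from 11 to 5 with no mismatch allowed and to 9 in the 150 bases nearest the gene. The count of members with a coding leading transcript was 48 under each alternative, and the GLI motif count was 0. Depth limits the levels of Ihh, with 10 and 8 counts, and Dhh, with 53 and 33, most among the members. No paired analysis was possible because the series has 1 group.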
